A study of Mus musculus with 18 samples.

Results

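Leg muscle of dko mice was compared with leg muscle of mdx mice on 6 of the 18 arrays in the series, 3 for each genotype. The arrays were taken by their titles, and dko and mdx arrays with the same number in the title were treated as a pair. The dko group was total RNA from leg muscle at 8 weeks of age. The labels use dko without expanding it; it usually names mice without dystrophin and without utrophin, a related protein. The mdx group was total RNA from leg muscle of mdx mice of the same age, which lack dystrophin and are named as the control. Both groups thus share the loss of dystrophin, and wild-type muscle was not analysed here. The labels give neither the alleles nor the strain, nor which muscle of the leg was taken. Whether each replicate is its own animal is not stated either, and the p-values therefore cover the spread among these samples alone, which may be technical. Each array gives 1 fluorescence value for a probe set, a group of short probes to one transcript, as intensity on a linear scale. All 12422 probe sets other than controls were considered. Dim ones were left out: a probe set was tested if 3 or more of the 18 arrays read it above their own 40th percentile. This left 8888, of which 7977 had exactly 1 gene symbol, for 6551 genes.

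Dystrophin ties the actin cytoskeleton of a muscle fibre to a protein complex in its membrane and, through that complex, to the matrix outside. Utrophin sits mainly at the neuromuscular junction and can take the place of dystrophin along the fibre. Fibres without this link break down and are rebuilt from satellite cells. New fibres for a time make embryonic forms of the contractile proteins, while macrophages clear debris and fibroblasts lay down matrix. Mature fibres are slow or fast, and each kind makes its own forms of myosin, troponin and the calcium pump.

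Utrn, the utrophin gene, was the check of the labels. Its probe set 92507_at read 239.6, 259.8 and 298 in dko and 438, 492 and 551 in mdx. Each dko array lay below each mdx array. The log2 difference was -0.61 ± 0.13 (SE, n = 3 pairs), which did not pass over all probe sets (limma, adjusted p = 0.0602). An exact permutation over the 20 assignments of 3 against 3 arrays gave p = 0.1 (two-sided), the smallest possible with these arrays. The other Utrn probe set, 92508_s_at, read 646, 431 and 233 in dko and 438, 624 and 738 in mdx, and the groups overlapped (log2 difference -0.39, limma adjusted p = 0.535, exact two-sided p = 0.4). Where these probes lie relative to the deleted part of Utrn is not known here. Dmd, the dystrophin gene, read 409, 262 and 71.0 in dko and 502, 216 and 229 in mdx with overlapping groups (log2 difference -0.26, limma adjusted p = 0.495).

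Both arrays numbered 3 stood apart from the other leg arrays. Array medians were 647, 633 and 526.2 intensity units in dko and 663.2, 637.7 and 540.9 in mdx, and the largest value on any leg array, 73099, was on mdx array 3. Deviations from the group means correlated across probe sets by 0.415 to 0.751 between dko and mdx arrays sharing a number and by -0.6 to 0.261 between different numbers. The intensity ratio of the 3′ to the 5′ control probe set of Gapdh was 0.14 to 0.26 in dko and 0.25 to 0.88 in mdx. That of Actb was 0.04 on dko array 2 and 0.44 to 1.05 on the other leg arrays. The part of these differences in the results was not tested. Of the markers that define skeletal muscle, Tnnt3, fast troponin T, was bright on each leg array (30022 to 47024 in dko and 19491 to 73099 in mdx), as was Pygm, muscle glycogen phosphorylase (24406 to 35681 in dko and 19116 to 61931 in mdx). The heart arrays read Tnnt3 at 40.5 to 385 but Pygm at 16068 to 36321.8, so Pygm does not tell leg from heart here. Probe sets of other skeletal muscle markers were low on some mdx arrays, with Acta1 down to 247.7, Myh4 98488_at to 461 and Actn3 100879_at to 520.2 there. Low readings occurred in dko as well, with Acta1 down to 1281.8. The fast calcium pump Atp2a1 (98126_s_at) was down to 899.8 in dko and 592.7 in mdx. The fast regulatory light chain Mylpf (92881_at) was down to 1097.3 in dko and 329.1 in mdx. The creatine kinase Ckm (160175_at) read 346 to 436.2 in dko and 131.5 to 1116.6 in mdx. Myh4 161545_r_at read 429.3 to 1262.8 in dko and 173.4 to 1055 in mdx. The second Actn3 probe set, 162164_f_at, was bright on each leg array (5776.9 to 12654 in dko and 8196.3 to 12371 in mdx). The low Actn3 reading thus holds for 1 of its probe sets only.

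Between dko and mdx leg muscle, 107 probe sets differed at an adjusted p under 0.05, which is 1.2% of the 8888 tested (limma with the pair as a block). Of these, 90 were higher and 17 lower in dko, 1.01% and 0.191% of those tested. These probe sets are called below, and they named 82 genes higher and 13 lower. Of the 90, 46 were over 2-fold higher, and of the 17, 6 were over 2-fold lower. The dko arrays all lay above the mdx arrays for 68 of the 90 and all below them for 12 of the 17, against 5.02% and 4.93% of all probe sets tested and 9.95% in both directions together. Each of the 107 had the same sign in 3 of 3 pairs, as did 40% of all probe sets. The median log2 difference of all probe sets was -0.04, and 44.7% were positive. The calls nearest to the threshold were S100a4 (adjusted p = 0.0476), Nt5dc2 (0.0457) and Clcn3 (0.0456), and the nearest outside it were Unc93b1 (0.05), Lgmn (0.05) and Cdkn1c (0.0509). The calls rest on the pairing and on all 3 pairs: without the block 4 were higher and 1 lower (0.045% and 0.0113% of those tested), and with 1 pair left out in turn 6 to 54 were higher and 2 to 6 lower. Leaving out the arrays numbered 3 in all tissues left 0 calls (limma with 3 residual degrees of freedom, 1330 at an unadjusted p under 0.05). All 107 kept their sign with any 1 leg pair left out, which the same sign in 3 of 3 pairs fixes in advance. Those called in each of these 3 fits were Myh7, Myl2, Tnnc1, Myh3, Kcne1l and Ighm. In the plot of level against difference, calls span dim and bright probe sets.

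**Figure D1:**
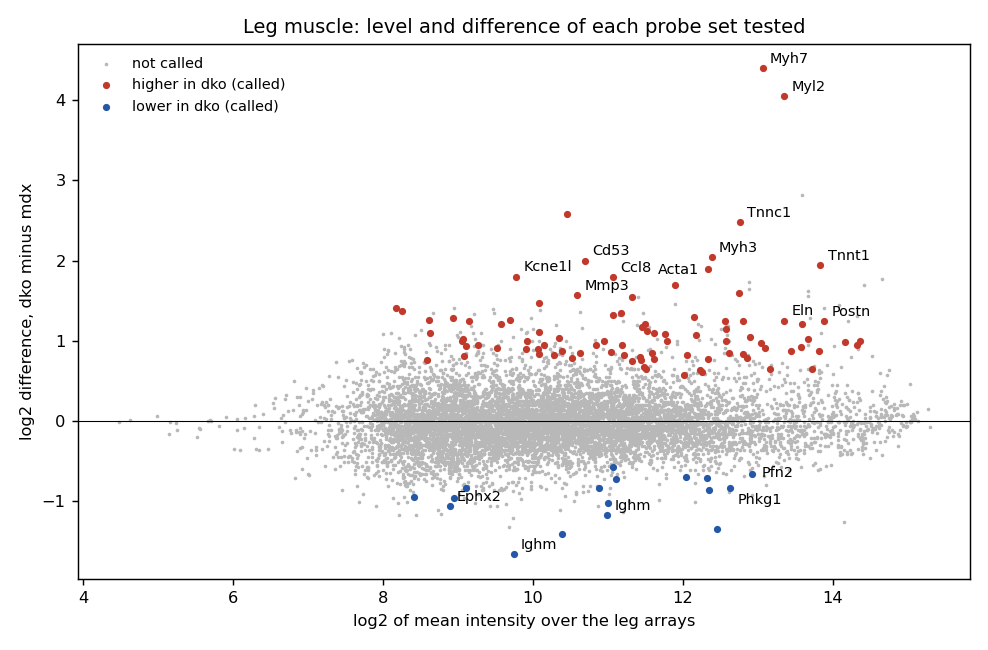
Each point is 1 of the 8888 probe sets tested in leg muscle, with the log2 of its mean intensity over the 6 leg arrays on the horizontal axis and the log2 difference, dko minus mdx, on the vertical axis. Red points are the 90 called higher and blue points the 17 called lower in dko, and Myh7 (4.40) and Myl2 (4.05) lie highest.

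Genes of slow fibres gave the largest differences. Of 15 measured genes of the slow contractile list 7 rose in dko and 0 fell, against 1.01% of all probe sets called higher. The list's median log2 difference was 0.68, against -0.032 over all genes. With 1 probe set each, 76 of all 6551 genes were called higher and 12 lower, and 45.6% were positive. These shares over all genes stand beside the counts of each list below. Myh7, the slow form of myosin heavy chain, read 17632, 15031 and 16145 in dko and 241, 1999 and 363 in mdx. All 3 dko arrays were bright and close together, and the mdx arrays were dim, with mdx array 2 the highest of them. The log2 difference was 4.40 ± 0.39 (SE, n = 3 pairs; 21.1-fold, limma adjusted p = 0.00193). Myh7 differed by 5.45, 2.81 and 4.94 in pairs 1, 2 and 3, a spread that the SE, pooled over tissues, does not measure. Its other probe set, 161547_f_at, was dim in both groups and was not called (0.37). Myl2, the slow regulatory light chain, read 18139, 14862 and 25842 in dko and 2478, 309 and 1094 in mdx (4.05 ± 0.37, adjusted p = 0.00193), and the groups were again far apart. Because RNA came from whole muscle, more cells or fibres of a type and more RNA in each cannot be told apart here or below.

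The troponin complex, which makes the thin filament sensitive to calcium, rose in each of its slow forms. Slow troponin C, Tnnc1, read 11874, 9672 and 14006 in dko and 2344, 1361 and 2348 in mdx, with a log2 difference of 2.48 ± 0.16 (SE, n = 3 pairs; limma adjusted p = 0.000301, the smallest of all probe sets). Slow troponin T, Tnnt1, read 19171, 22962 and 27836 in dko and 5339, 5768 and 6655 in mdx (1.94 ± 0.28, adjusted p = 0.0175). Its dimmer second probe set, 101383_at, differed by 0.74 and did not pass (adjusted p = 0.0581). Slow troponin I, Tnni1, read 23355, 16635 and 34019.8 in dko and 12605, 9902 and 13432 in mdx (0.98 ± 0.18, adjusted p = 0.0384). In these 3 genes each dko array lay above each mdx array, although Tnni1 was bright in mdx as well. Tpm3, the slow tropomyosin, read 11394, 9749 and 9951 in dko and 4563, 3760.0 and 2055 in mdx (1.60 ± 0.25, adjusted p = 0.0204). Atp2a2, the calcium pump of slow fibres and heart, read 4687, 5349.8 and 7638 in dko and 1576, 1169 and 2443 in mdx (1.70 ± 0.22, adjusted p = 0.0141). These groups did not overlap either. Not every slow gene was called. The stress-responsive Ankrd2 (0.68), the slow essential light chain Myl3 (0.52), the slow calsequestrin Casq2 (0.36), the oxygen store myoglobin, Mb (-0.46), and the calcium pump regulator sarcolipin, Sln (-0.04), were among the 8 not called. Actn2, an alpha-actinin of the Z-disc, read 160.3, 8.4 and 206 in dko and 323, 53.1 and 1810.4 in mdx and was not called (-1.11).

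Slow fibres share several of these proteins with heart muscle, so markers of heart were read on the same arrays. The probe sets of Myl7, Myh6 and Ryr2, which in adult muscle mark heart, read 33.6 to 132.9 on the dko leg arrays and 53.6 to 227.8 on the mdx leg arrays, and 6873.7 or more on each heart array. Other heart markers were brighter on leg arrays, and none was called: Nppa read 765.9 to 1749 in dko and 867.2 to 1848 in mdx, Mybpc3 290.7 to 1242 in dko and 119.3 to 762.6 in mdx, Tnni3 54.2 to 294.3 in dko and 48.0 to 662.6 in mdx, and Nppb 48.7 to 485.4 in dko and 224.6 to 451.8 in mdx, against 11864 or more on each heart array. Of 14 measured genes of the heart-restricted list 1 rose in leg, Myl4, and 0 fell, with a median of -0.12. The summed intensity of the list was 22160 to 23060 in dko and 12950 to 13970 in mdx, of which Myl4, also an embryonic muscle gene, gave 15264 to 19725 in dko and 6217 to 9048 in mdx.

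The promoters of the called slow genes were read because the genes moved together, and 4 are shown. Those 4 have an MCAT or TATA motif, defined below, in a window. Tnni1 and Tpm3 have neither and are not shown. Of the 7 that rose, 6 had an entry in the RefSeq promoter table (GRCm38.p6), which holds 250 bases before to 50 after each transcription start. Atp2a2 was not matched. Capitals mark 3 motifs: the E-box CANNTG, bound by myogenic factors among others and the same on both strands; the MCAT motif CATTCC on either strand, bound by TEAD factors; and the TATA motif TATAAA on either strand. No motifs overlapped in the windows shown. The table holds a second window for Myh7, without an MCAT motif, and for Myl2, without a TATA motif, and the window with the motif is shown. The Myh7 window lies at chr14:54994577-54994876 on the minus strand, the Myl2 window at chr5:122092939-122093238 on the plus strand, the Tnnc1 window at chr14:31208062-31208361 on the plus strand and the Tnnt1 window at chr7:4515926-4516225 on the minus strand.
Myh7: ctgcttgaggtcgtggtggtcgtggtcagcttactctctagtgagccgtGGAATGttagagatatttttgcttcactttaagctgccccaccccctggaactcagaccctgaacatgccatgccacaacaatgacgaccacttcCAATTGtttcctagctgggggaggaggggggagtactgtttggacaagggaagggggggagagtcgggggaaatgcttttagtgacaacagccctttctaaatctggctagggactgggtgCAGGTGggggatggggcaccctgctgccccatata
Myl2: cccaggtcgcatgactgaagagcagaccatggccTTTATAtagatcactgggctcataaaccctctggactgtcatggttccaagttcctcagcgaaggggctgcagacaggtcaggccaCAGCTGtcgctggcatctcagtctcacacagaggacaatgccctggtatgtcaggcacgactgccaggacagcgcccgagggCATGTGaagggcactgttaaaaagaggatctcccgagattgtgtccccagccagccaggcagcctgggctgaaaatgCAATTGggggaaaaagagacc
Tnnc1: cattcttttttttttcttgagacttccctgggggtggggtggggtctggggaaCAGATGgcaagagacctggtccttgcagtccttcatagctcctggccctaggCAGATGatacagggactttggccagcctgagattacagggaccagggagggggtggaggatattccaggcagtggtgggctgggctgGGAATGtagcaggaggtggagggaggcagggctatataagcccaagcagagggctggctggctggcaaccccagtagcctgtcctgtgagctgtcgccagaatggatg
Tnnt1: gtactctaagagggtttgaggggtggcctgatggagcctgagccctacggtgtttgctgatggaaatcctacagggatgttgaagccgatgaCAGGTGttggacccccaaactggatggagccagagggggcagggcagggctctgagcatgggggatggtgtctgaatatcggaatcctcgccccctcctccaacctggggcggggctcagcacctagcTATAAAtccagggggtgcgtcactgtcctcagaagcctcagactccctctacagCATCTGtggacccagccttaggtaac

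The 6 matched slow genes had 10 windows in the table. An E-box stood in 10 of these 10, and in 72.3% of all 32851 windows in the table. The MCAT motif stood in 2 of the 10, 1 of Myh7 and that of Tnnc1, and in 14.7% of all windows. The TATA motif stood in 2 of the 10, 1 of Myl2 and that of Tnnt1, and in 13.6% of all windows. Counted by gene, over any of its windows, 6, 2 and 2 of the 6 slow genes held the E-box, the MCAT and the TATA motif, as did 10, 5 and 4 of the 11 fast contractile genes with an entry. A match describes the letters only.

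Genes of fast fibres did not show a shared difference. Of 16 measured, 1 rose and 0 fell, with a median of 0.20. The gene that rose was Acta1, the actin of adult skeletal muscle and not of fast fibres alone. It read 1282, 1915 and 20656 in dko and 256, 248 and 6656 in mdx (1.90 ± 0.26 SE, limma adjusted p = 0.0158). Both leg arrays numbered 3 read far above the other leg arrays, so that the groups overlapped although each dko array was above its paired mdx array. Leg arrays numbered 1 and 2 read Acta1 below every heart array (4861.3 to 14479.6). In extraocular muscle it averaged 32960 in dko and 26600 in mdx. The cause of the low leg readings was not tested. The median of the fast list was 0.48, 0.72 and -0.55 in pairs 1, 2 and 3, and 15, 13 and 2 of its 16 genes were positive in those pairs. The spread lay mostly in mdx, where array 3 was the highest for 15 genes and array 2 the lowest for 13. These counts use 1 probe set a gene, and second probe sets were split. Those of Actn3 (162164_f_at, log2 difference -0.31) and Myh4 (161545_r_at, dim, 0.10) had mdx array 3 lowest. Those of Atp2a1 (98126_s_at) and Mylpf (92881_at) had mdx array 3 highest and array 2 lowest, but were positive in pair 3 (0.80 and 0.24). None of these was called. Myh4, the fastest myosin heavy chain, read 20815, 15397 and 35507 in dko and 10918, 461 and 48678 in mdx and was not called (1.70 ± 0.70, adjusted p = 0.239). Casq1, the fast calsequestrin, read 11672, 3855 and 26103 in dko and 9514, 7.9 and 39647 in mdx (1.41 ± 0.77, adjusted p = 0.378). Tnnt3, fast troponin T, read 39572, 30022 and 47024 in dko and 28382, 19491 and 73099 in mdx and differed by 0.15 ± 0.31, within its spread. Leaving out pair 2 put the median of the fast list at -0.01 and leaving out pair 3 put it at 0.64.

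**Figure D2:**
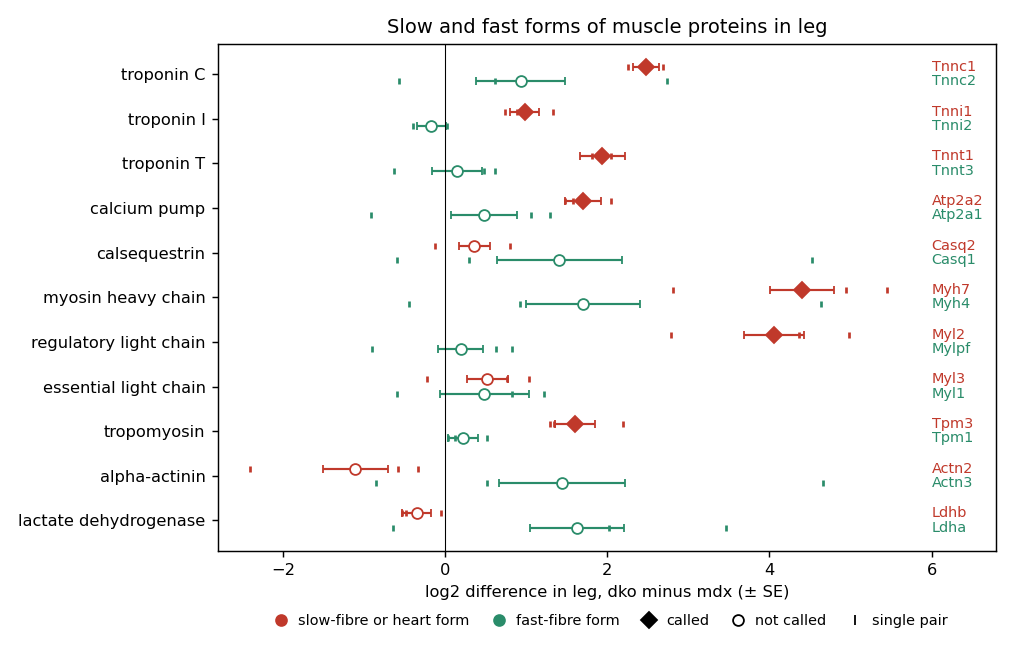
Log2 difference in leg, dko minus mdx, of the slow (red) and fast (green) form of 11 muscle proteins, with the standard error as a bar and each of the 3 pairs as a tick. Filled diamonds are called and open circles are not, and 7 of the 11 slow forms, all right of 0, and 0 of the 11 fast forms are called.

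Set side by side, the slow form was called and the fast form was not for 7 of the 11 proteins with both forms tested. For troponin I the differences were 0.98 for Tnni1 and -0.17 for Tnni2. The calcium pump differed by 1.70 in its slow form, Atp2a2, and by 0.48 in its fast form, Atp2a1. For lactate dehydrogenase, Ldhb, the form of oxidative fibres, differed by -0.35 and Ldha, the form of glycolytic fibres, by 1.62, and neither was called. The differences between the 2 forms of a protein were not tested.

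Of 27 measured genes of embryonic and regenerating muscle 6 rose in dko leg and 0 fell, 22 were positive and the median was 0.40. Myh3, the embryonic myosin heavy chain, read 6628, 11846 and 7648 in dko and 2049, 1345 and 2548 in mdx (2.04 ± 0.26 SE, n = 3 pairs; limma adjusted p = 0.0141), and the dko arrays lay well above the mdx arrays. Myh8, the perinatal myosin, read 4812, 5722 and 3802 in dko and 1825, 1997 and 2721 in mdx (1.08 ± 0.18, adjusted p = 0.0289). Myl4, an essential light chain of embryonic muscle and of the atrium, read 15264, 16877 and 19725 in dko and 7033, 6217 and 9048 in mdx (1.21 ± 0.20, adjusted p = 0.0262), with no overlap in any of these 3 genes. The second probe set of Myl4, 100828_at, had the opposite sign and was not called (-0.43). The tubulins Tubb2a (1.25 ± 0.16) and Tubb6 (0.87 ± 0.16), which build microtubules, rose as well, but a second Tubb2a probe set, 161614_r_at, was at -0.23. Fetal troponin T, Tnnt2 (1.25, adjusted p = 0.0713), and follistatin, Fst, an inhibitor of myostatin (1.10, adjusted p = 0.0541), did not pass.

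Of 19 measured genes of satellite cells and of the myogenic factors 2 rose and 0 fell, with a median of 0.08. Myf5, a factor of activated satellite cells and myoblasts, read 834, 988 and 459.9 in dko and 550.5, 388 and 98.3 in mdx (0.93 ± 0.18 SE, adjusted p = 0.0456). The groups overlapped, because both arrays numbered 3 were low, and each dko array was above its pair. Vcam1, a surface adhesion molecule, read 1319, 1224 and 1320.0 in dko and 663, 432 and 783 in mdx (0.90 ± 0.14, adjusted p = 0.022) without overlap. Its other probe sets disagreed: 92560_g_at, about as bright, was at 0.08 with overlapping groups (adjusted p = 0.804), and the dimmer 92559_at was at 0.71 (adjusted p = 0.0748); neither was called. The factors Myog (0.40), Myf6 (0.38) and Myod1 (0.08), which drive later steps of differentiation or commitment, were not called. At the neuromuscular junction 2 of 12 genes rose and 0 fell, with a median of 0.08. Both are subunits of the acetylcholine receptor: Chrnd read 857, 669 and 796 in dko and 228, 332 and 335 in mdx (1.02 ± 0.20, adjusted p = 0.0456) and Chrna1 read 4065, 5866 and 6519.8 in dko and 2326, 3360.4 and 3349 in mdx (0.82 ± 0.14, adjusted p = 0.0289). The groups did not overlap in either.

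None of 20 genes of the dystrophin complex and costamere was called, and the median was -0.01. The beta-1 integrin Itgb1 read 30748, 21311 and 27313 in dko and 22238, 21894 and 30384 in mdx (0.09), and the caveolin of muscle, Cav3, read 13609.9, 19483 and 10736 in dko and 10979, 13726 and 6871 in mdx (0.48, adjusted p = 0.136). The lowest value was that of Nos1, the neuronal nitric oxide synthase that the complex anchors (-1.16, adjusted p = 0.0809). The genes for sarcoglycans Sgca (-0.25), Sgcb (0.07) and Sgcd (-0.43) and for dystroglycan, Dag1 (0.06), were not called. Of 11 genes of calcium handling 0 were called, and the release channel Ryr1 read 30757, 29215 and 32606 in dko and 26374, 21238 and 37379 in mdx (0.16).

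Of 36 measured genes of fibrillar and fibrosis matrix 7 rose in dko and 0 fell, and 31 were positive, against 45.6% of all genes. The median was 0.56, with pair medians of 0.37, 0.84 and 0.36. Eln, elastin, read 14189.9, 11986 and 18181 in dko and 5629.9, 4782 and 8044 in mdx (1.25 ± 0.17 SE, n = 3 pairs; limma adjusted p = 0.0158). Postn, periostin, a matrix protein of activated fibroblasts, read 16546, 25011 and 22695 in dko and 8544, 7309 and 10962 in mdx (1.24 ± 0.19, adjusted p = 0.0204). In both genes the dko arrays lay above the mdx arrays. Col5a2, a chain of type V collagen, read 11843, 19030.2 and 20964 in dko and 5625, 7168 and 13553 in mdx (1.02 ± 0.16), with overlap through the bright mdx array 3. Col8a1, a chain of type VIII collagen, read 2352, 2479.9 and 3252 in dko and 1249.7, 1143 and 1402 in mdx (0.99 ± 0.14), and Mfap5, a microfibril protein, read 8595, 9434 and 6514 in dko and 5337, 3799.5 and 3023 in mdx (1.00 ± 0.16). Neither overlapped, but the dimmer second probe set of Mfap5, 99517_at, was at 0.09.

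The abundant fibrillar collagens differed less. Col1a1 differed by 0.07 and Col1a2 by 0.44, both chains of type I collagen, and neither was called (adjusted p = 0.886 and 0.243). Fibronectin, Fn1, was at 0.00. Probe sets of 1 gene disagreed for Col3a1, type III collagen, and Fbln1, fibulin-1: the brighter ones were not called (0.43 and 0.21), and a second one of each was (1.07 and 1.09). Ccn2, connective tissue growth factor (1.54, adjusted p = 0.0814), the crosslinking enzyme Lox (1.36, 0.0777) and tenascin C, Tnc (1.32, 0.0552), had differences as large as the called genes and did not pass. Of 14 basement membrane genes 1 rose, Nid2, a nidogen (644, 891 and 659 in dko and 465, 398 and 201 in mdx; 0.81 ± 0.15). Of 15 matrix proteases and inhibitors 1 rose, the stromelysin Mmp3, which read 1994, 3211 and 2026 in dko and 689, 657 and 707 in mdx (1.57 ± 0.21, adjusted p = 0.015). Of 25 genes of TGF-beta and BMP signalling 0 were called, with a median of 0.11, and Tgfb3 read 4218, 5027 and 4532 in dko and 4127, 2896 and 1929.9 in mdx (0.65, adjusted p = 0.165).

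Markers of the cells that could carry this matrix moved less as lists. Of 17 fibroblast genes 2 rose, Mfap5 and S100a4, and the median was 0.08, with a summed intensity of 94400 to 111500 in dko and 62690 to 107600 in mdx. None of 12 smooth muscle genes was called (median 0.04), although Acta2, the actin of smooth muscle and myofibroblasts, read 6545, 8652 and 10233 in dko and 5222, 4566 and 4651 in mdx without overlap (0.77, adjusted p = 0.106). None of 7 tendon and cartilage genes was called, with a median of -0.18 and a summed intensity of 9292 to 11660 in dko and 13370 to 18190 in mdx. Scx, a tendon transcription factor, read 3527, 4739 and 4395 in dko and 11150.0, 8809.5 and 4997 in mdx (-0.89, adjusted p = 0.202), each dko array below each mdx array. The part of these cell types in the matrix values was not tested.

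**Figure D3:**
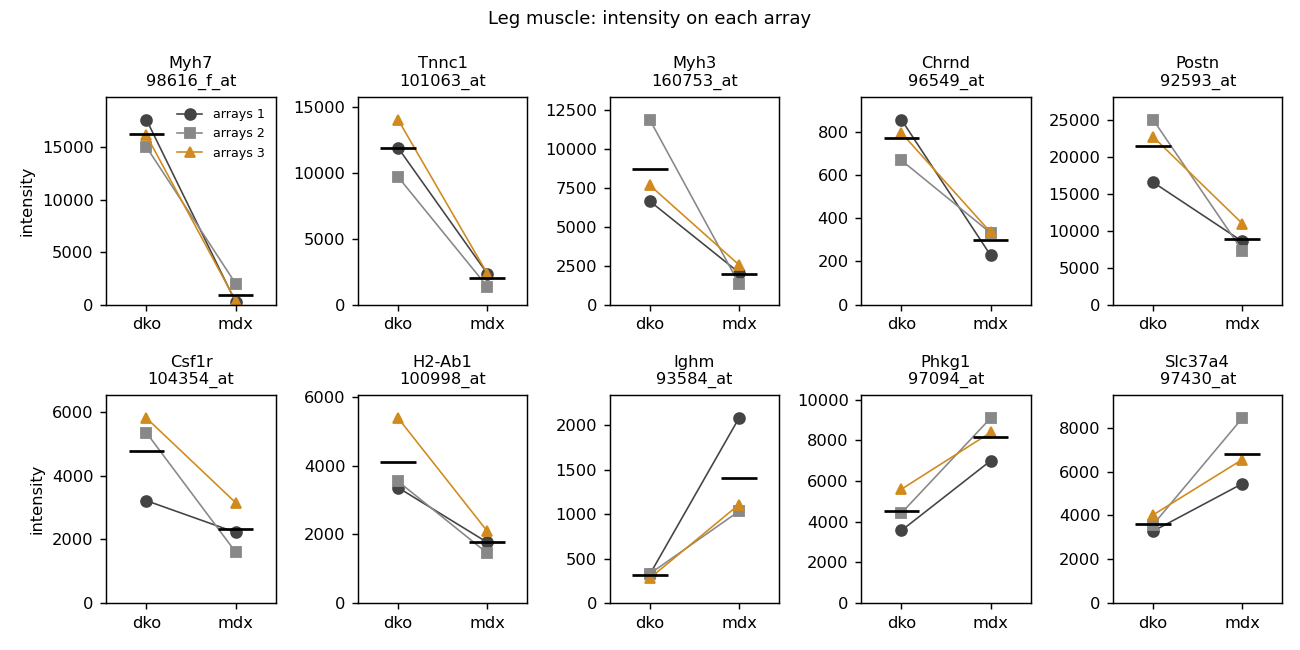
Intensity on each leg array of 10 probe sets, dko left and mdx right, with lines joining arrays of the same number and a black bar at the mean of 3. The dko arrays of Myh7, Tnnc1, Myh3, Chrnd, Postn, Csf1r and H2-Ab1 lie above the mdx arrays, and those of Ighm, Phkg1 and Slc37a4 lie below.

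The macrophage and myeloid list had the highest median of all 45 lists. Of 36 measured genes 4 rose and 0 fell, 35 were positive, against 45.6% of all genes, and the median was 0.76. The pair medians were 0.19, 1.06 and 0.65, so pair 1 differed least. Without pair 2 the median was 0.48, below that of the slow contractile (0.56) and embryonic lists (0.53), and without pair 1 it was equal to that of the slow list (0.89). Cd53, a tetraspanin of white blood cells, read 1322, 3508 and 2938 in dko and 184, 219 and 1806 in mdx (2.00 ± 0.38 SE, n = 3 pairs; limma adjusted p = 0.0415), and mdx array 3 lay among the dko arrays. Csf1r, the receptor for the macrophage growth factor, read 3212, 5347 and 5809 in dko and 2216, 1599 and 3151 in mdx (1.00 ± 0.20, adjusted p = 0.0456) without overlap, although its dimmer second probe set, 161832_r_at, was at -0.01. The complement genes C1qb (4154, 7386 and 14188 in dko and 2842, 1636 and 6197 in mdx; 1.25 ± 0.24) and C1qc (8650.1, 9803 and 16148 in dko and 5641, 4807 and 7315 in mdx; 0.91 ± 0.14), which macrophages make, also rose. A second C1qb probe set, 162276_i_at, had the opposite sign and was not called (-0.59). Ctss, a macrophage cathepsin (1.09, adjusted p = 0.0581), Lyz2, lysozyme (0.90, 0.0581), and Cd68 (0.81, 0.072), all defining markers, did not pass. The summed intensity of the list was 97900 to 173100 in dko and 55730 to 95830 in mdx.

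Of 13 complement genes 2 rose, the same C1qb and C1qc, and the median was 0.42. Other immune groups split. Of 8 genes of MHC class II, which present antigen, 2 rose and 0 fell, with a median of 0.58. H2-Ab1 read 3360.5, 3541 and 5387 in dko and 1763, 1449 and 2088 in mdx (1.12 ± 0.16 SE, adjusted p = 0.017) without overlap. H2-Aa read 7538, 6178 and 11029 in dko and 2445, 2559.5 and 6978 in mdx (1.14 ± 0.20, adjusted p = 0.0326), and there mdx array 3 lay among the dko arrays. Of 14 chemokines and cytokines 1 rose, Ccl8, which draws monocytes and read 3861, 2995 and 3054 in dko and 1225, 284 and 1418 in mdx (1.79 ± 0.28, adjusted p = 0.0204). Of 21 lysosomal genes 1 rose, the cholesterol carrier Npc2 (4688, 4867 and 5349.9 in dko and 3002, 3358 and 3486 in mdx; 0.57 ± 0.11), and 19 were positive, with a median of 0.37. Of 24 interferon and MHC class I genes 0 were called (median 0.05), and B2m, the light chain of MHC class I, read 10258, 10698 and 13626 in dko and 7236, 6056 and 13407 in mdx (0.44, adjusted p = 0.273).

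The lymphocyte lists had lower medians than the macrophage list, a difference that was not tested. Of 19 T cell genes on the array 8 were tested and 0 were called (median -0.07). Of 11 B cell genes on the array 8 were tested. Their median was -0.07, and it was 0.27 with the stricter filter on dim probe sets. Among 8 B cell genes 0 rose and 1 fell: Ighm, the heavy chain of immunoglobulin M, which had the deepest fall among all named genes. Its probe set 93584_at read 321, 328 and 278 in dko and 2082, 1033 and 1108 in mdx (-1.67 ± 0.17 SE, n = 3 pairs; limma adjusted p = 0.00506), and 93583_s_at read 1154, 1346 and 1012 in dko and 3810.1, 2350.3 and 2572 in mdx (-1.18 ± 0.20, adjusted p = 0.0289). In both, each dko array was far below each mdx array, and mdx array 1 was the highest. The other 3 Ighm probe sets were not called (-0.25, -0.16 and -0.41). They were dimmer than both in mdx (means of 492, 721 and 605). In dko their means of 400, 644 and 461 lay above the 309 of 93584_at. Of 8 mast cell and granulocyte genes 0 were called, 6 were positive and the median was 0.35. The mast cell chymase Cma1 read 1198, 1549 and 2509 in dko and 857, 827 and 920.5 in mdx without overlap (0.83, adjusted p = 0.0748).

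Of 25 tubulin and actin cytoskeleton genes 3 rose and 0 fell (median 0.26). Tmsb10, which holds actin monomers, read 22978, 26406 and 33472 in dko and 8959, 12279.6 and 22601 in mdx (1.00 ± 0.18 SE, adjusted p = 0.0338). Of 17 genes of the S100 and annexin families, which bind calcium and, for the annexins, membranes, 3 rose (median 0.37). Anxa1 read 12533, 11791 and 9348 in dko and 6289, 5211 and 5364 in mdx (0.97 ± 0.16), Anxa2 read 10489, 12825 and 23374 in dko and 4791, 5720.0 and 16163 in mdx (0.92 ± 0.14) and S100a4 read 9827, 8111 and 10056 in dko and 5108, 4449 and 6759 in mdx (0.78 ± 0.16). The groups overlapped for Anxa2, where both arrays numbered 3 were brightest, and not for Anxa1 or S100a4. Of 35 cell division genes 2 rose and 0 fell (median 0.16). Cdk1, the kinase that drives entry into mitosis, read 604, 877 and 1124 in dko and 178, 237 and 395 in mdx (1.24 ± 0.24, adjusted p = 0.0415), and its partner Cks2 read 176, 615 and 793 in dko and 49.2, 98.9 and 94.4 in mdx (1.37 ± 0.24, adjusted p = 0.0326). Neither overlapped. Of 11 genes of insulin-like growth factor signalling 1 rose, the binding protein Igfbp4 (2749, 2401 and 4004 in dko and 1127, 1039 and 2664 in mdx; 0.94 ± 0.15), whose second probe set, 94222_at, was at -0.08.

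Genes of energy metabolism had medians at or below that of all genes. Of 52 genes of oxidative phosphorylation 0 were called and 12 were positive, against 45.6% of all genes positive. The median was -0.11, with pair medians of 0.14, -0.04 and -0.47. The most abundant, Cox6c, a subunit of cytochrome oxidase, read 43275, 36129.5 and 35894 in dko and 33423, 32804 and 59865 in mdx (-0.08, adjusted p = 0.884). Of 24 genes of fatty acid oxidation 0 were called, 2 were positive and the median was -0.16. Acadm, a dehydrogenase of medium-chain fatty acids, read 14054, 13691 and 21258 in dko and 14121, 15066 and 31104 in mdx (-0.23), with mdx array 3 the highest. Of 22 genes of the tricarboxylic acid cycle 5 were positive and 1 rose, the mitochondrial isocitrate dehydrogenase Idh2 (5376, 3798 and 8631 in dko and 3449.5, 2591 and 5039.9 in mdx; 0.63 ± 0.12 SE, adjusted p = 0.0369). Of 26 genes of glycolysis and glycogen 0 rose and 1 fell, Phkg1, the catalytic subunit of phosphorylase kinase in muscle. It read 3565, 4424 and 5597 in dko and 6998, 9098 and 8392 in mdx (-0.84 ± 0.15, adjusted p = 0.0297), without overlap.

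Besides Ighm and Phkg1, 11 named genes fell. Slc37a4, which carries glucose 6-phosphate into the endoplasmic reticulum, read 3281, 3579 and 4027 in dko and 5452, 8453 and 6556 in mdx (-0.86 ± 0.15 SE, adjusted p = 0.0327). Pfn2, a profilin that binds actin, read 4840.2, 5677 and 7592 in dko and 8137, 9769.5 and 10728 in mdx (-0.66 ± 0.13, adjusted p = 0.0431), and Cmbl, a hydrolase, read 4060.3, 3069 and 4424 in dko and 6125, 5427 and 7706 in mdx (-0.71 ± 0.12, adjusted p = 0.0262). None of these groups overlapped. Ephx2, the soluble epoxide hydrolase, read 64.9, 318 and 412 in dko and 535, 692 and 829 in mdx (-1.07 ± 0.20, adjusted p = 0.0354), all below the mdx arrays. Lgalsl, a galectin-like protein, read 1689.7, 1354 and 765 in dko and 3926, 3014 and 1543 in mdx (-1.03 ± 0.17), with overlap because both arrays numbered 3 were low. The chromatin organiser Satb1 (-0.84 ± 0.15), the microtubule-binding Map7 (-0.84 ± 0.16) and Oca2, a transporter of pigment cells (-0.95 ± 0.15), also overlapped between groups. C2cd2 (-0.73 ± 0.13), bone sialoprotein, Ibsp (-0.96 ± 0.18), and Clcn3, a chloride and proton exchanger (-0.70 ± 0.14), did not. The other 3 probe sets of Clcn3 were not called (-0.31, -0.08 and -0.43), nor was the second of Ibsp (-0.60).

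Some of the strongest rises lay outside the lists. Kcne1l, an accessory subunit of potassium channels, read 959, 1253 and 2077 in dko and 85.0, 239 and 663 in mdx (1.80 ± 0.17 SE, n = 3 pairs; limma adjusted p = 0.00193), with no overlap. C1qtnf3, a secreted protein with a complement-like domain, read 2705, 5275 and 3731 in dko and 1277, 1013 and 1294 in mdx (1.54 ± 0.26, adjusted p = 0.0289), and Cpxm1, a secreted carboxypeptidase-like protein, read 298, 541 and 647 in dko and 41.6, 40.7 and 163 in mdx (1.41 ± 0.26, adjusted p = 0.0334). Their groups did not overlap, although Cpxm1 was near the bottom of the scale in mdx. Sirpa, an inhibitory receptor of myeloid cells, read 1069, 1204 and 2377 in dko and 231, 141 and 1491 in mdx (1.47 ± 0.26, adjusted p = 0.0327), with mdx array 3 among the dko arrays. Its other probe sets, 95803_at and 95804_g_at, were not called (0.19 and 0.43).

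The remaining lists held no call in either direction. Limb and trunk patterning genes, many of them Hox genes, had the lowest median of the 45 lists: 1 of 16 was positive and the median was -0.28. Without pair 2 it was -0.27, above that of the tendon and cartilage list (-0.44), and with the stricter filter on dim probe sets it was -0.11. The lowest of these, Hoxa13, which patterns the distal limb, differed by -1.03 (adjusted p = 0.0537). Tbx15, a limb factor, read 3834, 2594 and 2986 in dko and 3329, 4873 and 3486 in mdx (-0.30, adjusted p = 0.506), and the groups overlapped. Ion channels of the fibre membrane had a median of -0.20 over 14 genes, and the water channel Aqp1 read 2549, 2689 and 7356 in dko and 4128, 4799 and 9753 in mdx (-0.62, adjusted p = 0.0829). The median was 0.15 over 27 glucocorticoid, fasting and atrophy genes, -0.03 over 35 ubiquitin and proteasome genes, -0.03 over 32 heat shock and oxidative stress genes, 0.09 over 20 immediate early genes, 0.11 over 21 ribosomal protein genes, and -0.08 over 14 genes of creatine kinase, myoglobin and carbonic anhydrase. The nuclear receptor Nr4a1, an immediate early gene, read 12274, 4814 and 8423 in dko and 6159.7, 11876 and 6026 in mdx, and its pairs differed in sign.

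Markers of other cells and tissues that a leg dissection could hold were called in no case. Medians were -0.13 over 22 endothelial genes, -0.07 over 17 adipocyte genes, -0.07 over 13 nerve and Schwann cell genes, -0.16 over 19 genes of skin and epithelium and -0.19 over 10 erythroid genes. Summed intensities were 35800 to 41990 in dko and 42930 to 43670 in mdx for endothelium, and 31190 to 35890 in dko and 31160 to 40990 in mdx for erythroid genes. Cdh5, the cadherin of endothelium, read 3588, 4902 and 3704 in dko and 5109, 5279 and 5203 in mdx, each dko array below each mdx array (-0.36, adjusted p = 0.197). Pmp22, a myelin protein of Schwann cells, read 2248, 2619.8 and 2767 in dko and 1975, 1818 and 1971 in mdx (0.37, adjusted p = 0.166), also without overlap. Beta-globin, Hbb-b2, read 5376, 2982 and 2302 in dko and 7268, 2829 and 3089.9 in mdx, and the groups overlapped.

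**Figure D4:**
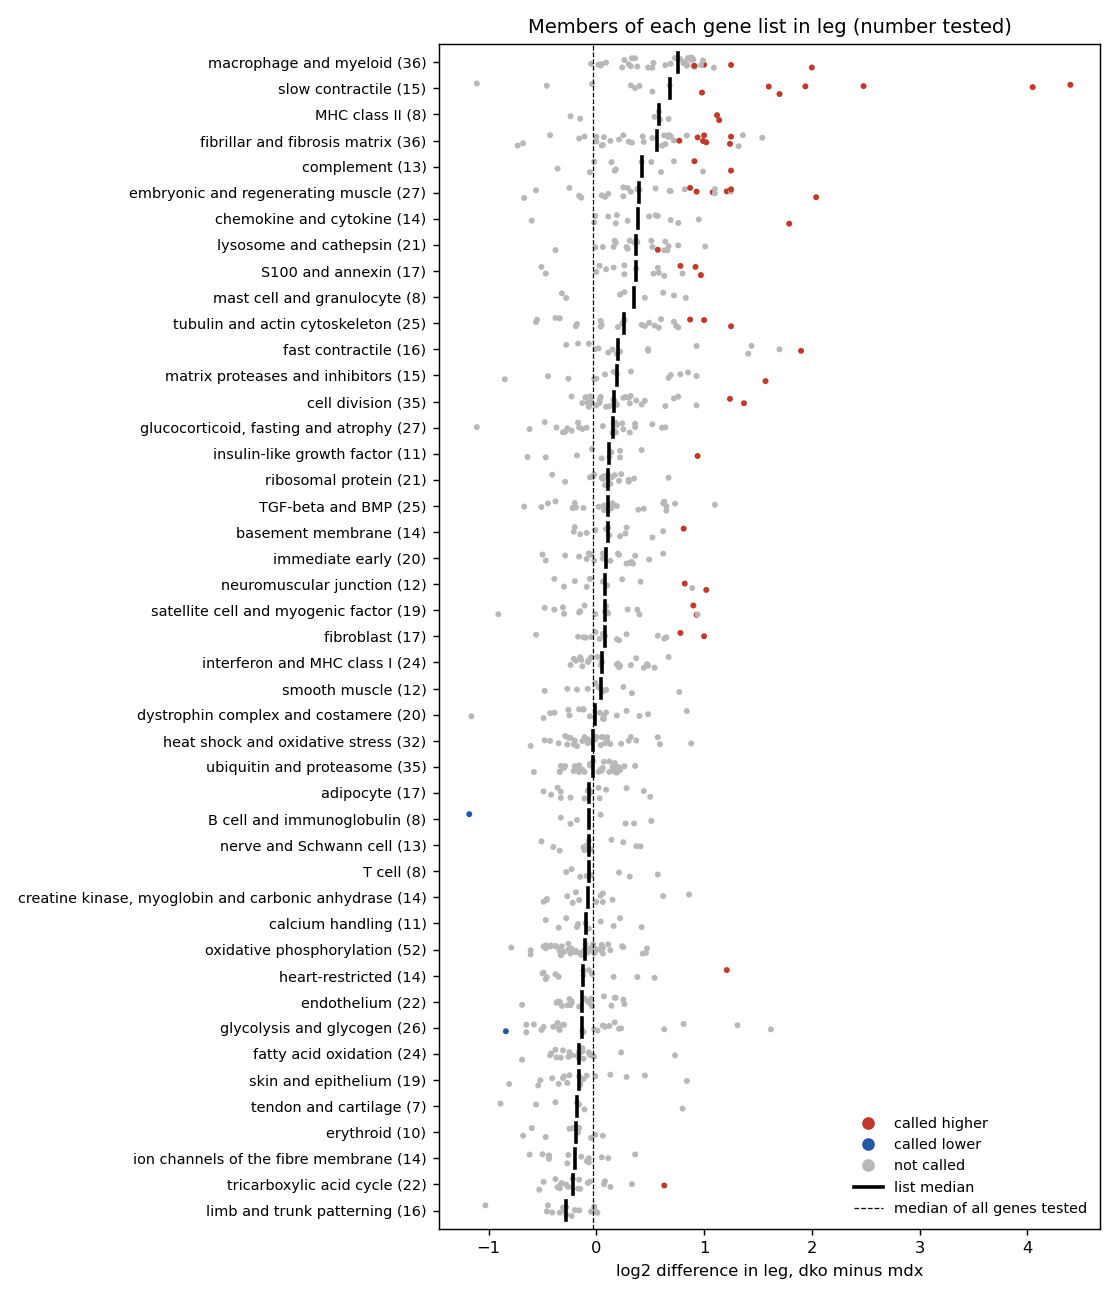
Log2 difference in leg, dko minus mdx, of each measured gene (points; red called higher, blue called lower, grey not called) in the 45 gene lists, ordered by list median (black bars), with the number of genes tested in brackets and the median of all genes (-0.032) as a dashed line. Macrophage and myeloid genes (0.76) stand at the top and limb and trunk patterning genes (-0.28) at the bottom.

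The same comparison was made on the arrays of extraocular muscle, which moves the eye, and of heart, in the same fit. There 14 probe sets were called in extraocular muscle and 0 in heart, 0.158% and 0% of those tested. Of the 90 higher in dko leg, 74 were also positive in extraocular muscle, with a median log2 difference of 1.00 in leg and 0.25 in extraocular muscle, and 45 were positive in heart, with a median of 0.00. Those called higher in both muscles were Kcne1l (1.24 in extraocular muscle), Ms4a6c (1.13), Myl4 (1.47) and S100a4 (1.15). Of the 17 lower in dko leg, 16 were also negative in extraocular muscle and 12 in heart, and 0 were called in either. The shares of all probe sets that were positive or negative in these tissues were not computed. The counts of shared sign therefore have no baseline and are not read as agreement between tissues.

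The leg change itself was called different from the extraocular change for 3 probe sets and from the heart change for 6, or 0.0338% and 0.0675% of those tested. Tnnc1 rose in leg by 2.45 more than in extraocular muscle (adjusted p = 0.0084) and by 2.47 more than in heart (adjusted p = 0.00617). The changes of Myl2 differed by 4.07 (adjusted p = 0.0481) and 5.39 (adjusted p = 0.00617). For Myh7 the difference was called against heart (4.06, adjusted p = 0.0441) and not against extraocular muscle (4.17, adjusted p = 0.0531). In extraocular muscle Myh7 averaged 20340 in dko and 17690 in mdx, and Tnnc1 averaged 15380 in dko and 15100 in mdx. Both genes were thus bright in the eye muscles of both genotypes, while in leg Myh7 averaged 16270 in dko and 868 in mdx, and Tnnc1 averaged 11850 in dko and 2018 in mdx. Myl2 averaged 3015 in dko and 11460 in mdx heart, below its 21000 in dko and 20950 in mdx extraocular muscle. For the macrophage list the median was 0.76 in leg, 0.62 in extraocular muscle and 0.00 in heart, and for the matrix list it was 0.56 in leg, 0.08 in extraocular muscle and 0.02 in heart. The differences between tissues of these medians were not tested.

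**Figure D5:**
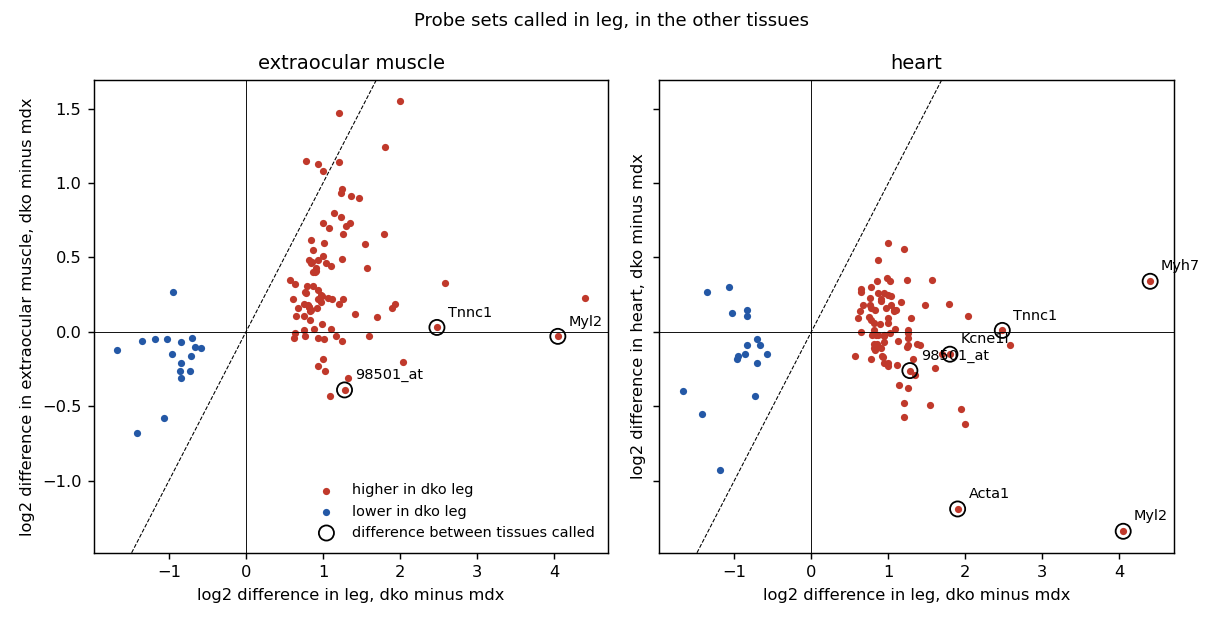
Log2 difference, dko minus mdx, in leg (horizontal axis) and in extraocular muscle or heart (vertical axis) of the 90 probe sets called higher (red) and the 17 called lower (blue) in leg, with equal differences on the dashed line. Circles mark probe sets whose change was called different between tissues, 3 for extraocular muscle and 6 for heart, and Myh7, Myl2 and Tnnc1, at 4.40, 4.05 and 2.48 in leg, lie at -1.34 to 0.34 in the other tissues.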

How the data were processed

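Total RNA from leg muscle was measured on 3 dko and 3 mdx arrays, and 12 arrays of extraocular muscle and heart entered the same fit. The table deposited by the authors holds intensity on a linear scale, and per its values they had scaled each array to a mean of 1500.69 to 1501.15 with 2% trimmed from each tail; the software, detection calls and scan dates are not given in the sources used here. Each of the 18 columns matched 1 array title, leaving 0 columns unmatched. The number of arrays limits the precision.

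Of 12488 probe sets 66 were controls and were left out of the tests; 0 of them were called in leg when added (smallest adjusted p 0.082, limma). Of the 12422 left, 10833 had 1 symbol in the probe annotation, 396 had several and 1193 had none; looking symbols up by gene ID changed 0. An offset of 166.7 (the arrays' 25th percentile, taken as the median over arrays) was added and log2 taken. The model, run in R 4.3.3 with lmFit, contrasts.fit and eBayes from limma 3.58.1, held 6 group means and a block for each replicate number in each tissue, with 6 residual and 3.79 prior degrees of freedom. P-values are two-sided, adjusted by Benjamini and Hochberg over the 8888 probe sets. Each SE is that of this fit, with the spread pooled over the tissues and moderated by eBayes. Fold changes are on the scale with the offset and understate those of dim probe sets.

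The labels number the replicates without saying what the numbers mean. Same-numbered leg arrays correlated in their deviations by 0.585, 0.415 and 0.751, which is the ground for the block. Named genes were the 15 largest rises and falls called, up to 5 called members of each list by size or, where none was called, the 3 brightest, the slow and fast partners, Utrn and Dmd. Other uncalled members given as values were chosen after their values were seen. All members and lists were chosen with earlier results of these data known. A list uses the brightest probe set of each gene. Of 45 lists none was tested. The 15 alternatives changed the block, arrays, scaling, offset, filter or eBayes options. Plots used Python 3.11.15 and matplotlib 3.10.9.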

Additional observations from a re-analysis of the deposited data

Results flagged for a closer look

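The changes of 6 probe sets were called different between leg and another tissue by the test of that difference (limma with the pair as a block, over all probe sets). Against extraocular muscle the leg change was larger by 2.45 on the log2 scale for Tnnc1 (2.48 in leg and 0.03 in extraocular muscle), by 4.07 for Myl2 (4.05 and -0.03) and by 1.68 for 98501_at, which has no symbol here (1.28 and -0.39). Against heart it was larger by 2.47 for Tnnc1 (0.01 in heart), 5.39 for Myl2 (-1.34), 4.06 for Myh7 (0.34), 3.10 for Acta1 (-1.19), 1.95 for Kcne1l (-0.15) and 1.54 for 98501_at (-0.26). The lowest Acta1 reading was 1281.8 in dko leg and 247.7 in mdx leg, against 4861.3 in heart. Each of the 6 probe sets was higher in dko in 3 of 3 leg pairs. All 107 leg calls had the same sign in 3 of 3 pairs, so this adds no support for a difference between tissues.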

How the results depend on the processing

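The replicate block decides most calls. With no replicate block 4 probe sets were called higher (Myh7, Myh3, Tubb2a and Postn) and 1 lower (Ighm, 93584_at), all among the 107, and 0 differed between leg and extraocular muscle or heart (556 in leg, 180 and 259 in the differences at an unadjusted p under 0.05, limma). A block common to all tissues gave 109 higher, 35 lower, and 5 and 4 differing from extraocular muscle and heart. The leg arrays alone gave 1 higher and 0 lower (2 residual degrees of freedom, 1285 at an unadjusted p under 0.05). Leaving out 1 leg pair in turn gave 6 to 54 higher, 2 to 6 lower, 0 to 2 differing from extraocular muscle and 2 to 8 from heart; the lowest counts higher came without replicate 2 (6) and without replicate 1 (29). Without the arrays numbered 3 in all tissues 0 of each were called (706 and 833 of the differences at an unadjusted p under 0.05). An offset of 50 gave 49 higher, 7 lower, 1 and 2; an offset of 500 gave 189, 75, 6 and 30. Trend and robust options gave 201, 97, 8 and 35. No filter gave 74, 15, 1 and 4, a filter on the leg arrays 122, 36, 4 and 7, and a stricter filter 148, 67, 3 and 5. Scaling to the 75th percentile gave 95, 23, 3 and 6, and quantile normalization 92, 23, 3 and 4. None of the named calls that an alternative tested changed sign under it. These were 58 under 13 of the 15 alternatives, 55 under the leg filter and 51 under the stricter filter. Where leg arrays were left out by number this was fixed in advance, as each call had the same sign in 3 of 3 pairs. Of the named calls, 5 kept their call with no replicate block, 58 with 75th percentile scaling and 56 with quantile normalization. The scalings moved the median of all probe sets from -0.04 to -0.041 and -0.026. With 3 arrays a group and no detection calls, what the dim probe sets can show is limited.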

Other observations

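The 6 genes described next were called and lie in no list. They were chosen after their values were seen and stand for no group. Runx1, a transcription factor made in denervated and injured muscle, read 570.2, 994 and 2633 in dko and 226, 617 and 800.2 in mdx (1.00 ± 0.17 SE, n = 3 pairs; limma adjusted p = 0.0292). Capn6, a calpain-like protein of embryonic muscle, read 2151, 4097 and 3948 in dko and 914, 1036 and 1724 in mdx (1.35 ± 0.22, adjusted p = 0.0238). Sox11, a transcription factor of developing tissues, read 876, 1414 and 1411 in dko and 232, 533 and 511 in mdx (1.26 ± 0.17, adjusted p = 0.0151). The imprinted gene Peg3 read 11696, 14538 and 16610.4 in dko and 5088, 8832 and 10074 in mdx (0.87 ± 0.13, adjusted p = 0.0204). Sfrp2, a secreted modulator of Wnt signalling, read 1789, 1234 and 1271 in dko and 1017, 537 and 574 in mdx (0.89 ± 0.14, adjusted p = 0.0204), and Fstl1, a secreted follistatin-like protein, read 2358, 3278 and 4828 in dko and 1441, 1418 and 3319 in mdx (0.76 ± 0.14, adjusted p = 0.0327). The groups overlapped for Runx1 and Fstl1 and not for the other genes.

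Of the 107 calls, 10 had no symbol or several. The highest of them was 101771_r_at, which averaged 2468 in dko and 341 in mdx (log2 difference 2.58, adjusted p = 0.0307). The lowest were 103297_at, at -1.42 (means of 673 for dko and 2017 for mdx, adjusted p = 0.0456), and 101489_at, at -1.35 (means of 3107 for dko and 8161 for mdx, adjusted p = 0.0204).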
